A study of Mus musculus with 14 samples.

Results

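The 9 receptors described here guide phagocytes towards chemical signals, and they were followed across blood-forming and mature myeloid cells of wild-type and Rheb1-/- mice. They are the chemokine receptors Cxcr2, Ccr1, Ccr2, Cx3cr1 and Cxcr4, the formyl peptide receptors Fpr1 and Fpr2, the complement receptor C5ar1 and the leukotriene B4 receptor Ltb4r1. Every probe whose gene name on the array is one of these 9 was taken, which gave 14 of 41174 probes, 2 each for Cxcr2, Fpr2, Ccr2, Cx3cr1 and Cxcr4 and 1 for each other gene. All 14 passed the filter on dim probes, which kept 27144 probes in all.

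Chemotactic receptors are proteins that cross the membrane several times and pass their signal through Gi proteins, phosphoinositide 3-kinase and Rac to the actin cytoskeleton. In bone marrow, CXCR4 holds myeloid cells near its ligand CXCL12, whereas CXCR2 draws mature neutrophils out into the blood. CCR2 does the same for classical monocytes, and CX3CR1 marks patrolling monocytes and their progenitors. FPR1 and FPR2 detect formylated peptides of bacteria and mitochondria, C5AR1 the complement fragment C5a, and LTB4R1 a lipid released by activated leukocytes.

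Gene expression was read on 14 single-colour Agilent arrays, 1 per sample. Hematopoietic stem cells were measured in 1 wild-type and 1 Rheb1-/- sample, and myeloid progenitors (titled GMP) and myeloid cells in 3 samples of each genotype. Rheb1-/- stands for Vav1-cre; Rheb1 fl/fl, in which Cre is expressed throughout the blood system, so that the deletion is not limited to myeloid cells. Rheb1, whose official symbol is Rheb, activates the growth kinase complex mTORC1, and the series title concerns its part in macrophage differentiation and phagocytosis. The age and number of animals per sample, the sorting markers and any allele carried by the wild-type controls are not stated in the labels.

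Values are log2 signals relative to the 75th percentile of the array, so that 0 is the level of that percentile. They compare arrays for 1 probe and not probes with each other. On the 14 arrays 58.48% to 67.6% of spots were well above background and none was saturated, and replicates correlated at 0.987 to 0.991 across probes. All wild-type myeloid arrays lay on slide 1 and all Rheb1-/- myeloid arrays on slide 4, so genotype and slide cannot be told apart in myeloid cells, and the same holds for the 2 stem cell arrays. Slide 3 held 2 of the 3 progenitor arrays of each genotype, with the others on slide 2 (wild type) and slide 4 (Rheb1-/-). Slide 2, with wild-type progenitor array 1 and the stem cell array of that genotype, was scanned on another day than the other slides. As a check of the labels, the Rheb signals of the genotypes did not overlap in either replicated cell type, with Rheb1-/- arrays lower by log2 -0.89 ± 0.22 (SE) in myeloid cells (limma adjusted p = 0.0121) and by -1.08 ± 0.22 in progenitors (limma adjusted p = 0.104). The labels do not say whether the Rheb probe lies within the deletion.

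The labelled cell types were set against marker lists, each summed per array and given as log2 of the sum. Such a sum follows the brightest genes of its list most. The 11 neutrophil markers on the array were all well above background on every array, and their sum ranged from 9.67 to 10.38 in wild-type progenitors and from 11.76 to 11.90 in wild-type myeloid cells. The 12 monocyte or macrophage markers, also measured on every array, ranged from 8.92 to 9.23 in wild-type progenitors and from 9.44 to 9.46 in wild-type myeloid cells. The 8 myeloid progenitor markers ran the other way, from 10.59 to 10.89 in wild-type progenitors and from 9.24 to 9.51 in wild-type myeloid cells. The samples labelled myeloid cells thus held RNA of neutrophil and of monocyte genes. Fewer cells of a type and less RNA per cell cannot be told apart in such bulk samples.

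**Figure D1:**
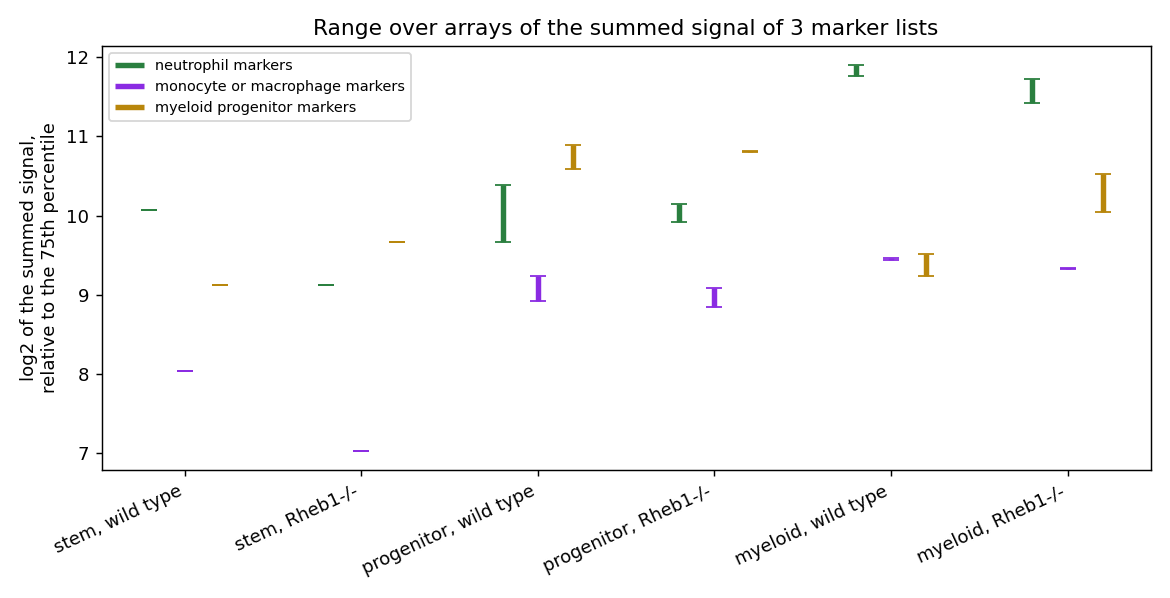
Log2 of the summed signal of the neutrophil, the monocyte or macrophage and the myeloid progenitor marker lists in the 6 groups; each bar spans the lowest to the highest array of a group, and stem cell groups have 1 array. Neutrophil markers lie between 11.42 and 11.90 in myeloid cells of both genotypes, and myeloid progenitor markers lie higher in Rheb1-/- (10.04 to 10.52) than in wild-type myeloid cells (9.24 to 9.51).

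The probes are shown because receptors of this kind come in related copies and because 2 probes of a gene can differ. Each probe has 60 bases and is named by the base of its transcript where it starts. The array design places both Cxcr2 probes on the plus strand of mm9 chromosome 1, at chr1:74206886-74206945 (probe 2108) and chr1:74206323-74206382 (probe 1545). Their first 30 bases are
Cxcr2 probe 2108: aagggtggggagttcgtgtagaagacacag
Cxcr2 probe 1545: ggtggaggagtagaaaatggcaagtgacaa
The 2 Fpr2 probes lie on the plus strand of mm9 chromosome 17 at chr17:18030540-18030599 (probe 919) and chr17:18029929-18029988 (probe 308), and the Fpr1 probe on the minus strand at chr17:18013609-18013668. Fpr1 and Fpr2 belong to a cluster of similar genes, and binding of relatives to these probes was not tested.
Fpr2 probe 919: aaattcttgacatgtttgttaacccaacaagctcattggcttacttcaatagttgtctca
Fpr2 probe 308: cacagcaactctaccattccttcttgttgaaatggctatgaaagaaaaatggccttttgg
Fpr1 probe 1089: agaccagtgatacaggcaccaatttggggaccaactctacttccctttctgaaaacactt
The Cx3cr1 probes read the minus strand of chromosome 9 (mm9), at chr9:119959018-119959077 (probe 2476) and chr9:119960610-119960669 (probe 884).
Cx3cr1 probe 884: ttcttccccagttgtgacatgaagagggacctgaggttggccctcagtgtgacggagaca

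The 250 bases before the start of each gene were read from RefSeq promoters (GRCm38.p6), which held all 9 members. They were searched on both strands for GAGGAA, the core of sites bound by the myeloid factor PU.1. The second motif searched on both strands was TTGCNNAA, a C/EBP pattern that is not palindromic, where N is any base. GAGGAA was found in 4 of the 9 promoters, those of Cxcr2, Fpr2, Ltb4r1 and Ccr1, against 23.3% of all 32851 promoters in the table, and TTGCNNAA in 0 of 9 against 9.56%. The promoters of Cxcr2, Fpr2 and Cx3cr1 are printed because these are the members whose signal differed between genotypes below, and capitals mark GAGGAA or its reverse complement. The Cxcr2 stretch is chr1:74153744-74153993 on the plus strand, with 1 match from 81 to 76 bases before the start.
Cxcr2 promoter: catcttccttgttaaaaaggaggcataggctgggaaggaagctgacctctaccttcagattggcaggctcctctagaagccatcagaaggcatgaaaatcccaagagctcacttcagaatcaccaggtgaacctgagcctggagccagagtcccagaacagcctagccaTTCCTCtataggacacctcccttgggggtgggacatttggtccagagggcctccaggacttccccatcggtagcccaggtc
The Fpr2 stretch is chr17:17887574-17887823 on the plus strand, with 1 match from 19 to 14 bases before the start.
Fpr2 promoter: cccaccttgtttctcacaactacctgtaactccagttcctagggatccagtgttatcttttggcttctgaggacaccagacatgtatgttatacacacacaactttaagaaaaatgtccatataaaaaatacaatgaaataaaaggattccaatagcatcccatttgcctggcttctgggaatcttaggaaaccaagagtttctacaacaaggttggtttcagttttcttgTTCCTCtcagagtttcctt
The Cx3cr1 stretch is chr9:120068297-120068546 on the minus strand and holds neither motif in these letters.
Cx3cr1 promoter: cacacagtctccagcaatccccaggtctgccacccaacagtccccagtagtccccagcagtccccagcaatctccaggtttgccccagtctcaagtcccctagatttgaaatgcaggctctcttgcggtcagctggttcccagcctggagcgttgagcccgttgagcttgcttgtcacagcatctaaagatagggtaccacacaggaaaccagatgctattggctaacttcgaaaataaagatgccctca

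**Figure D2:**
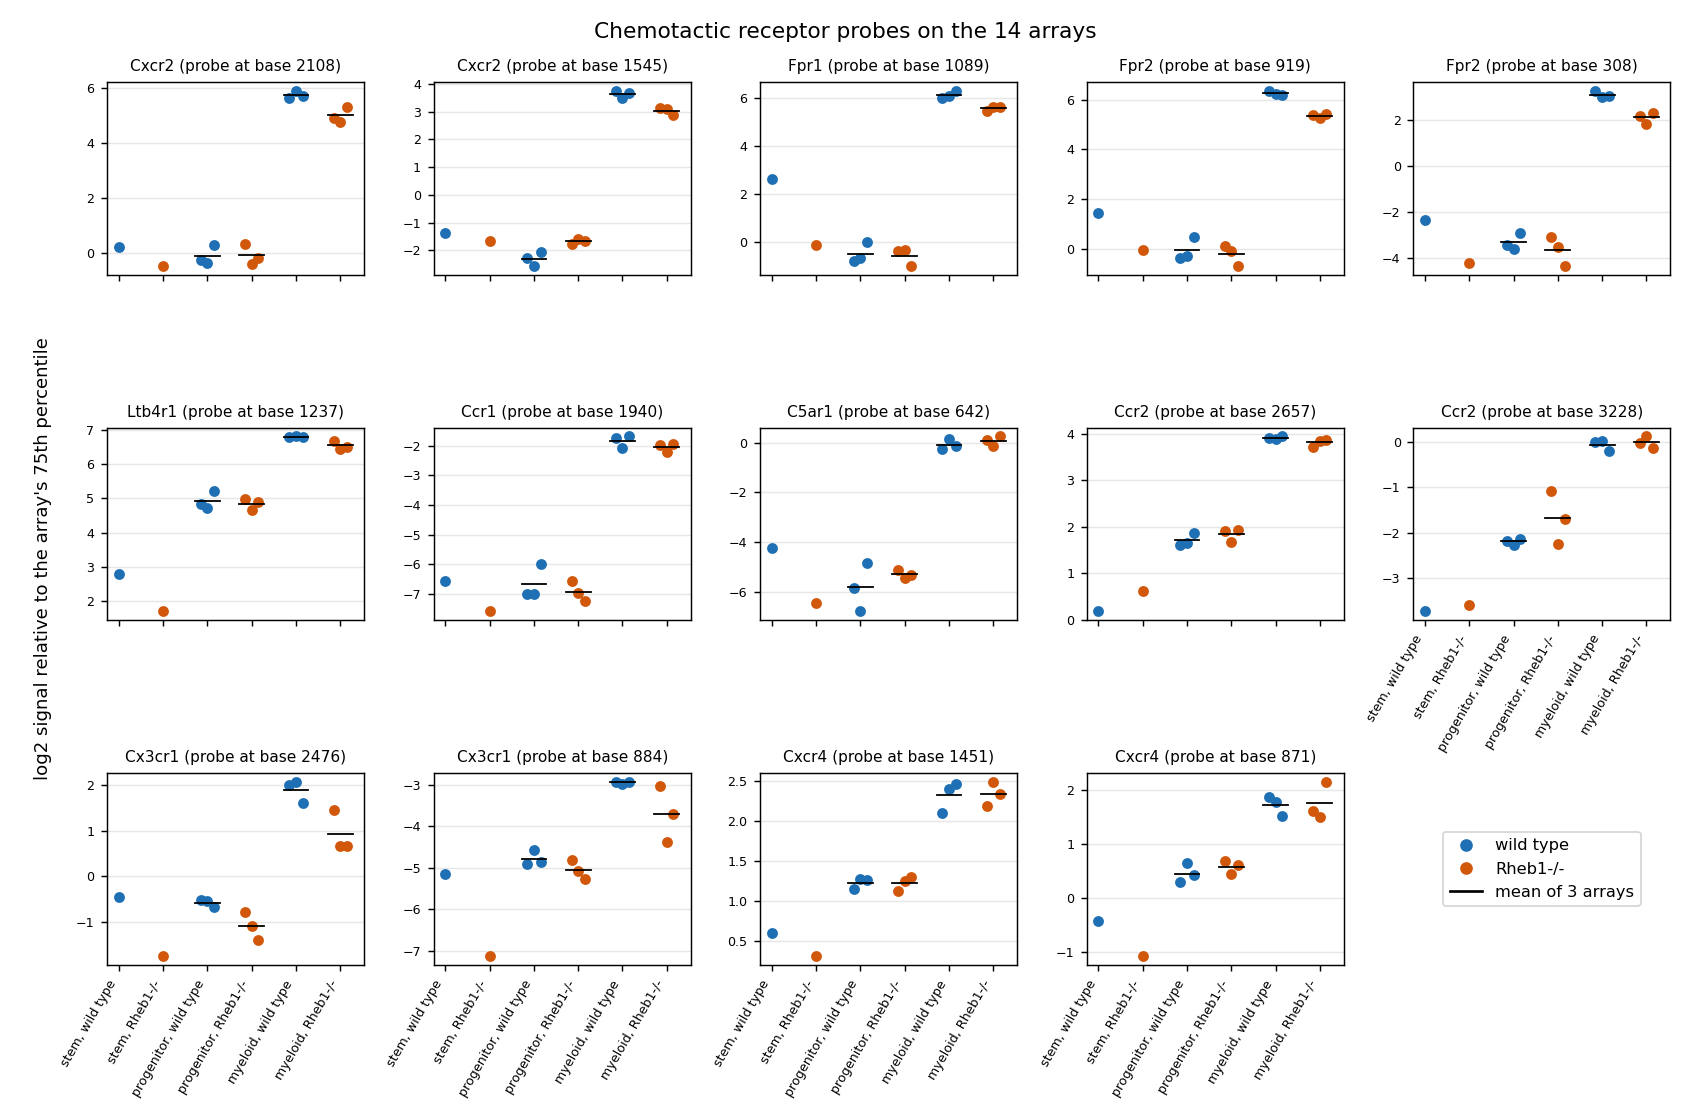
Log2 signal relative to the array's 75th percentile of each of the 14 receptor probes on the 14 arrays, by cell type and genotype; points are arrays and lines are means of 3 arrays, and each panel has its own scale. Every probe lies higher on all 6 myeloid cell arrays than on all 6 progenitor arrays.

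How the receptors differ between progenitors and mature myeloid cells was examined first. All 14 probes rose in myeloid cells of both genotypes, against 38.1% of all probes that rose in wild-type and 29.6% that rose in Rheb1-/- cells (limma, adjusted p under 0.05, two-sided). For all 14 the groups did not overlap either, which held with the myeloid side higher for 39.4% and 32.1% of all probes. Ccr1 is counted among the 14 although only the myeloid arrays carried it through the filter on dim probes. Its rise is therefore no independent support for either count. Fpr1, Fpr2, Cxcr2 and C5ar1 rose 53.3-fold to 97.1-fold in wild-type cells and Ccr1, for which only a bound can be given, at least 15.8-fold, whereas Ccr2, Cx3cr1, Ltb4r1 and Cxcr4 rose 2.13-fold to 5.49-fold. The median difference of the 14 probes was 3.64 on the log2 scale in wild-type and 3.36 in Rheb1-/- cells, beside 0.02 and -0.10 over all probes. In wild-type cells the cell types lay on different slides, while slide 4 held the 3 myeloid arrays and 1 progenitor array of Rheb1-/- cells. Within that slide the log2 differences were 6.58 for Fpr1, 6.05 and 6.44 for Fpr2 (probes 919 and 308), 5.19 and 4.71 for Cxcr2 (probes 2108 and 1545) and 5.38 for C5ar1. They were 1.67 for Ltb4r1, 1.88 and 1.68 for Ccr2 (probes 2657 and 3228), 2.31 and 1.57 for Cx3cr1 (probes 2476 and 884) and 1.03 and 1.15 for Cxcr4 (probes 1451 and 871). Markers of other cell types also rose between the cell types: in wild-type cells 3 of 5 tested erythroid, 4 of 5 B cell, 5 of 6 T or NK cell, 5 of 6 dendritic cell and 3 of 5 stroma or endothelium markers were higher, with 0, 0, 1, 1 and 2 lower. In Rheb1-/- cells 3 were higher in each of these lists, with 2, 1, 1, 1 and 1 lower. Among the higher ones, Cd3g and Cd209a were not above background on any progenitor array. Eosinophil, basophil or mast cell markers (7 of 8 lower in each genotype) and megakaryocyte markers (5 of 6 lower) ran the other way. Their part in the receptor differences was not tested.

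Fpr1, the high-affinity receptor for formylated peptides, read -0.83, -0.68 and -0.01 on the wild-type progenitor arrays and -0.40, -0.35 and -1.02 on the Rheb1-/- ones. In myeloid cells it read 5.97, 6.05 and 6.27 in wild type and 5.46, 5.61 and 5.62 in Rheb1-/- samples. The progenitor groups overlapped each other and lay far below both myeloid groups, and the wild-type stem cell array, at 2.61, stood between them. The rise was 97.1-fold in wild-type cells (log2 6.60 ± 0.23 SE, n = 3 per group, limma adjusted p = 9.84e-09) and 71.1-fold in Rheb1-/- cells (6.15 ± 0.23, limma adjusted p = 3.81e-08).

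Fpr2, which binds formylated peptides together with lipid and protein ligands such as annexin A1, read -0.38, -0.29 and 0.48 on wild-type progenitor arrays with probe 919 and 6.35, 6.24 and 6.19 on wild-type myeloid arrays. Its Rheb1-/- values were 0.11, -0.08 and -0.70 in progenitors and 5.37, 5.26 and 5.41 in myeloid cells. The genotypes overlapped in progenitors and were apart in myeloid cells. The rise was 80.1-fold in wild-type and 47.5-fold in Rheb1-/- cells (log2 6.32 and 5.57, SE 0.24 each, limma adjusted p = 1.26e-08 and 6.44e-08), and probe 308 gave 84.9-fold and 54.0-fold (log2 6.41 and 5.76, and 6.44 in Rheb1-/- cells within slide 4).

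Cxcr2, the neutrophil receptor for ELR-positive chemokines such as Cxcl1 and Cxcl2, read -0.27, -0.38 and 0.26 in wild-type progenitors with probe 2108 and 5.62, 5.88 and 5.69 in wild-type myeloid cells. The Rheb1-/- arrays read 0.33, -0.41 and -0.20 in progenitors and 4.90, 4.77 and 5.31 in myeloid cells. The Rheb1-/- myeloid arrays all lay below the wild-type ones. Cxcr2 rose 58.2-fold in wild-type and 34.0-fold in Rheb1-/- cells (log2 5.86 and 5.09, SE 0.23 each, limma adjusted p = 1.36e-08 and 7.21e-08). Probe 1545 gave 60.9-fold and 26.1-fold (log2 5.93 and 4.71, SE 0.14 each).

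Ltb4r1, the high-affinity leukotriene B4 receptor, was already well above background in progenitors, at 4.91 ± 0.25 in wild-type and 4.84 ± 0.17 in Rheb1-/- cells (SD, n = 3 each). In myeloid cells it averaged 6.80 ± 0.01 in wild type and 6.55 ± 0.12 in Rheb1-/- samples. Both stem cell arrays, at 2.80 and 1.70, lay below every progenitor array. Its rise was 3.70-fold in wild-type and 3.26-fold in Rheb1-/- cells (log2 1.89 and 1.71, SE 0.13 each, limma adjusted p = 4.39e-07 and 1.56e-06), smaller than that of the other neutrophil-leaning members on the log2 scale.

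Of the receptors that neutrophils and monocytes share, Ccr1, which binds inflammatory CC chemokines such as Ccl3 and Ccl5, was not well above background on any progenitor or stem cell array. It was measured on all 6 myeloid arrays, at -1.83 ± 0.20 in wild-type and -2.05 ± 0.15 in Rheb1-/- cells (SD, n = 3 each). Against the lowest signal well above background, it was at least 15.8-fold higher in myeloid cells than in progenitors of the wild type. In Rheb1-/- mice it was at least 17.1-fold higher. The limma fit tested the differences without this bound (log2 4.83 and 4.87, limma adjusted p = 9.03e-08 and 1.86e-07). Only the myeloid arrays carried Ccr1 through the filter on dim probes, so these p-values are no independent support for its rise. C5ar1, the receptor for C5a, read -5.84, -6.79 and -4.86 in wild-type progenitors, where 2 of 3 arrays were well above background, and -0.27, 0.13 and -0.14 in wild-type myeloid cells. Its rise was 53.3-fold in wild-type and 41.2-fold in Rheb1-/- cells (log2 5.74 and 5.36, SE 0.38 each, limma adjusted p = 2.68e-07 and 7.85e-07). With normexp background correction these differences of dim probes shrank, to log2 1.85 for Ccr1 and 3.29 for C5ar1 in wild-type cells, and they still passed.

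Among the monocyte receptors, Ccr2, the receptor for Ccl2, read 1.61, 1.66 and 1.87 in wild-type progenitors with probe 2657 and 3.92, 3.90 and 3.95 in wild-type myeloid cells. It rose 4.62-fold in wild-type and 3.95-fold in Rheb1-/- cells (log2 2.21 and 1.98, SE 0.10 each, limma adjusted p = 2.75e-08 and 1.20e-07). Probe 3228 gave 4.38-fold and 3.17-fold. Cx3cr1, the fractalkine receptor, read -0.51, -0.53 and -0.68 in wild-type progenitors with probe 2476 and 1.99, 2.07 and 1.60 in wild-type myeloid cells. It rose 5.49-fold in wild-type and 4.01-fold in Rheb1-/- cells (log2 2.46 and 2.00, SE 0.23 each, limma adjusted p = 3.56e-06 and 2.41e-05). Probe 884 gave smaller values, 3.58-fold and 2.55-fold, and with normexp only log2 0.83 and 0.55.

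Cxcr4, the receptor for Cxcl12 that retains cells in marrow, differed least between the cell types on the log2 scale. With probe 1451 it averaged 1.22 ± 0.07 in wild-type progenitors and 2.32 ± 0.20 in wild-type myeloid cells (SD, n = 3 each). The rise was 2.13-fold in wild-type and 2.17-fold in Rheb1-/- cells (log2 1.09 and 1.11, SE 0.12 each, limma adjusted p = 1.12e-05 and 1.40e-05). Probe 871 gave 2.40-fold and 2.25-fold.

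**Figure D3:**
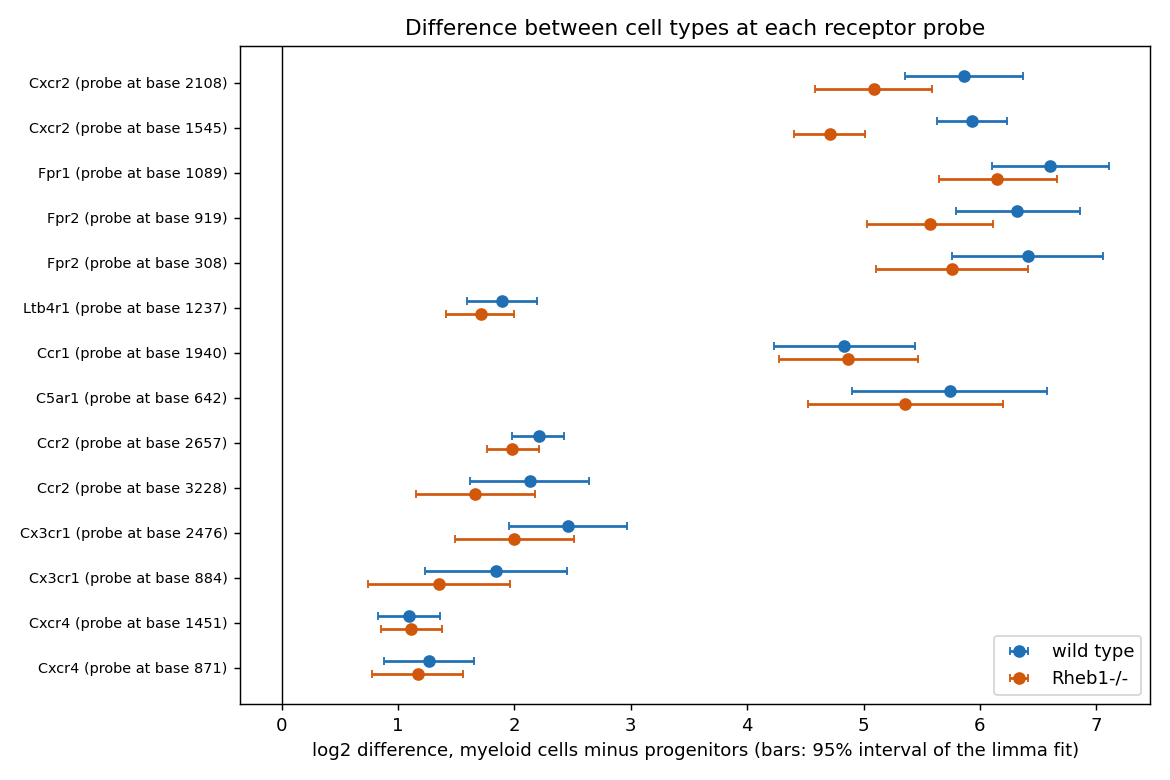
Log2 difference of each receptor probe between myeloid cells and progenitors, with the 95% interval of the limma fit, for wild-type (blue) and Rheb1-/- cells (orange), 3 arrays per group. All 28 intervals lie above 0, and the wild-type differences run from 1.09 for Cxcr4 probe 1451 (interval 0.83 to 1.36) to 6.60 for Fpr1 (interval 6.10 to 7.11); the Ccr1 values are measured against a probe that was not well above background in progenitors.

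Whether loss of Rheb1 changes the receptors in mature myeloid cells was examined next. Cxcr2, Fpr2 and Cx3cr1 were lower in Rheb1-/- myeloid cells by 1.51-fold to 1.99-fold, while no member was called higher. In all, 5 of 14 probes fell and 0 rose, against 16.1% of all probes that fell and 15.5% that rose. With quantile normalization 7 member probes fell, beside 3628 of all 27144 probes. The share of lower probes among all called probes was then 40.7% in place of 51.0%. On 9 of the 14 probes, representing 6 genes, every Rheb1-/- array lay below every wild-type array, which held for 26.8% of all probes. The median difference was -0.40 over the 14 probes and -0.07 over all probes.

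**Figure D4:**
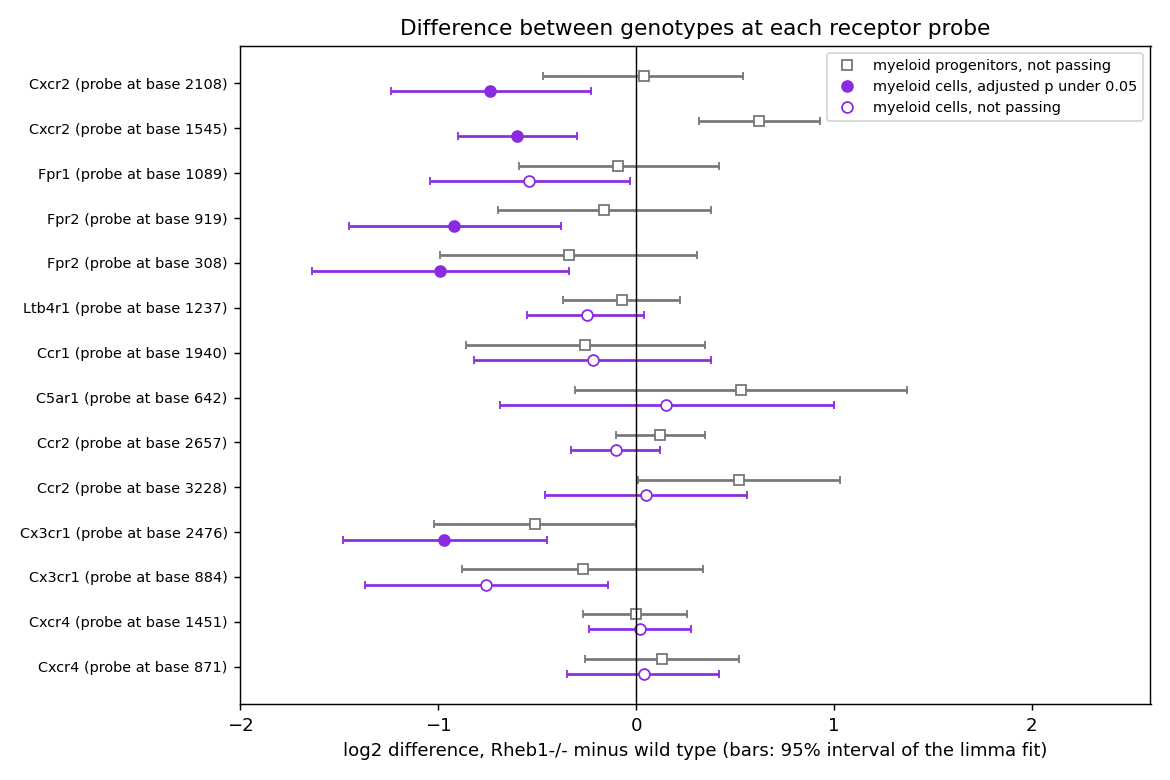
Log2 difference between Rheb1-/- and wild-type samples at each receptor probe in progenitors (squares) and myeloid cells (circles), with the 95% interval of the limma fit, 3 arrays per group; filled symbols have an adjusted p under 0.05. The 5 filled circles are both Cxcr2 probes, both Fpr2 probes and Cx3cr1 probe 2476, at log2 -0.60 to -0.99.

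Cxcr2 fell at both probes. Its signal at probe 2108, given above, was 1.67-fold lower in Rheb1-/- myeloid cells (log2 -0.74 ± 0.23 SE, 3 arrays per genotype, adjusted p in limma = 0.0321). At probe 1545 the wild-type arrays read 3.74, 3.49 and 3.67 and the Rheb1-/- arrays 3.13, 3.1 and 2.87, with no overlap. This was a 1.51-fold lower signal (log2 -0.60 ± 0.14, limma adjusted p = 0.0087), and it passed in all 20 alternatives.

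Fpr2 fell at both probes as well. At probe 919 its signal was 1.89-fold lower (log2 -0.92 ± 0.24 SE, 3 arrays per genotype, adjusted p in limma = 0.0169). At probe 308 the wild-type arrays read 3.25, 3.00 and 3.05 and the Rheb1-/- arrays 2.18, 1.83 and 2.32. The genotypes did not overlap there, and the signal was 1.99-fold lower (log2 -0.99 ± 0.29, limma adjusted p = 0.0272).

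Cx3cr1 fell at 1 of its 2 probes. At probe 2476 the wild-type arrays read 1.99, 2.07 and 1.60 and the Rheb1-/- arrays 1.44, 0.66 and 0.66, so that 1 Rheb1-/- array came close to the wild-type range. The signal was 1.95-fold lower (log2 -0.97 ± 0.23 SE, 3 arrays per genotype, adjusted p in limma = 0.0108), and it passed in all 21 alternatives. At probe 884 the wild-type arrays read -2.92, -2.97 and -2.94 and the Rheb1-/- arrays -3.02, -4.38 and -3.71. That difference did not pass (log2 -0.76 ± 0.28, limma adjusted p = 0.0603), and without Rheb1-/- myeloid array 1, the highest of the 3, it was -1.10 and passed (limma adjusted p = 0.00481).

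Some of these calls were lost with fewer arrays, at differences of similar size. Cxcr2 probe 2108 and Fpr2 probe 308 no longer passed when any of wild-type myeloid arrays 1, 2 or 3 or Rheb1-/- myeloid arrays 1 or 2 was left out (log2 -0.79 to -0.63 and -1.04 to -0.85, limma adjusted p = 0.0506 to 0.104 and 0.0517 to 0.0902), and Fpr2 probe 919 no longer passed without Rheb1-/- myeloid array 2 (log2 -0.87, limma adjusted p = 0.0525). The count of lower member probes was 3 without any one of the wild-type myeloid arrays, 2 without Rheb1-/- myeloid array 2, and 3 with no filter on dim probes. The values of Cxcr2, Fpr2 and Cx3cr1 kept their sign in every alternative.

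The other members did not pass. Fpr1 was lower on each Rheb1-/- myeloid array than on every wild-type one, by log2 -0.54 ± 0.23 SE (95% interval -1.04 to -0.03, limma adjusted p = 0.0992). It passed in 4 of 21 alternatives, among them quantile normalization and slide as a random block. That block cannot separate slide from genotype in myeloid cells, where each genotype lay on its own slide. Ltb4r1 was lower on each array too, by -0.25 ± 0.13 (interval -0.55 to 0.04, limma adjusted p = 0.171), and by -0.47 with quantile normalization, where it passed (limma adjusted p = 0.0300). The shared receptors Ccr1 and C5ar1 differed by -0.22 (interval -0.82 to 0.38) and 0.15 (interval -0.69 to 1.0), and their genotypes overlapped. Ccr2 differed by -0.10 (interval -0.33 to 0.12) and 0.05 (interval -0.46 to 0.56) at its 2 probes. Cxcr4 differed by 0.02 (interval -0.24 to 0.28) and 0.04 (interval -0.35 to 0.42). The intervals of Ccr1, C5ar1, Ccr2 and Cxcr4 all include 0 and do not show that the genotypes are alike.

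Other cell types' markers moved with genotype in the same myeloid samples. The 8 myeloid progenitor markers summed to 9.24 to 9.51 in wild-type and 10.04 to 10.52 in Rheb1-/- myeloid cells. Of the 8, 6 rose, beside 15.5% of all probes. They were Prtn3, Ctsg and Elane, which encode granule proteases made early in granulocyte development (log2 1.61, 1.38 and 1.11), and Ms4a3, Kit and Mpo (log2 1.19, 0.89 and 0.61). The 11 neutrophil markers summed to 11.76 to 11.90 and 11.42 to 11.72, with 1 lower, Mmp9 (log2 -0.96), and 0 higher. The 12 monocyte or macrophage markers summed to 9.44 to 9.46 and 9.33 to 9.34, with 3 lower and 1 higher. The lower ones were Csf1r, Cd68 and Ly6c2 (log2 -0.59, -0.44 and -0.34), and the higher one was the lipopolysaccharide co-receptor Cd14 (log2 2.20). Erythroid markers were at 9.44 to 10.13 and 6.60 to 8.73 with 4 of 5 lower, B cell markers at 4.0 to 5.06 and 2.99 to 3.48 with 4 of 5 tested lower and Pax5 not above background in either genotype, and dendritic cell markers at 1.38 to 1.5 and -0.57 to 0.38 with 2 of 6 lower and Clec9a not above background in Rheb1-/- cells. Eosinophil, basophil or mast cell markers were at 5.20 to 6.56 and 4.06 to 5.96 with 4 of 8 lower, and megakaryocyte markers at 1.35 to 2.18 and 0.10 to 1.04 with 4 of 6 lower. T or NK cell markers were at 4.32 to 4.73 and 5.31 to 5.84 with 1 higher and 3 lower of 6. The higher one was Nkg7 (log2 1.26), while Cd3d, Cd3g and Klrb1c fell (log2 -2.87, -1.67 and -0.91). Cd3g was not above background on any Rheb1-/- myeloid array. It passed the filter on dim probes only through wild-type myeloid arrays, so its fall is no independent support. The sum of this list thus rose while most of its called genes fell. Stroma or endothelium markers were at 2.97 to 3.11 and 3.68 to 3.90 with 1 higher and 2 lower of 5. Stem cell markers were at 4.09 to 4.40 and 3.36 to 3.43 with 1 higher and 1 lower of 8. Their part in the lower signal of Cxcr2, Fpr2 and Cx3cr1 was not tested.

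In myeloid progenitors no member passed between genotypes, where 26 of 27144 probes did (0.0958%). With an unadjusted limma p under 0.05 there were 2 of 14 member probes, Cxcr2 probe 1545 and Ccr2 probe 3228, beside 3055 of all 27144 probes. Cxcr2 probe 1545 read -2.27, -2.56 and -2.05 in wild-type and -1.76, -1.58 and -1.67 in Rheb1-/- progenitors. The genotypes did not overlap, and the difference of log2 0.62 ± 0.14 SE (0.64 within slide 3) did not pass (limma adjusted p = 0.115). Probe 2108 of the same gene differed by 0.04 ± 0.23, with overlapping genotypes, so the 2 probes of Cxcr2 disagreed in progenitors. Ccr2 probe 3228 differed by 0.52 ± 0.23 (limma adjusted p = 0.434) and probe 2657 by 0.12 ± 0.10. Cx3cr1 probe 2476 lay lower on each Rheb1-/- array, by -0.51 ± 0.23 (limma adjusted p = 0.446; -0.32 within slide 3). Groups without overlap were seen for 2 of 14 probes, against 19.1% of all probes.

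The genotype difference was then compared between the cell types with an interaction term. Cxcr2 probe 1545 was the 1 member probe whose genotype difference differed between myeloid cells and progenitors (log2 -1.22 ± 0.19 SE, limma adjusted p = 0.0101), and it passed in all 19 alternatives. As 1 of 14 this is no larger a share than the 9.38% of all probes that passed. For Cxcr2 probe 2108 the term was -0.77 ± 0.32 (limma adjusted p = 0.147) and for Fpr2 probe 919 it was -0.75 ± 0.34 (limma adjusted p = 0.180). For Cx3cr1 it was -0.46 and -0.49 at the 2 probes (limma adjusted p = 0.389 and 0.444). The fall of Fpr2 and Cx3cr1 in myeloid cells was thus not shown to differ from their values in progenitors. This term contains the myeloid contrast and with it the slides.

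The receptors were also summarised by the cells that use them, as the mean over the genes of a class, 1 probe per gene, relative to wild-type progenitors. The neutrophil-leaning members Cxcr2, Fpr1, Fpr2 and Ltb4r1 lay 5.13 to 5.19 log2 units above wild-type progenitors in wild-type myeloid cells and 4.47 to 4.66 in Rheb1-/- myeloid cells. The monocyte members Ccr2 and Cx3cr1 lay at 2.20 to 2.41 and 1.68 to 2.01. Both classes were lower on every Rheb1-/- myeloid array, the second through Cx3cr1, since Ccr2 differed by -0.10. The shared members Ccr1 and C5ar1, at 5.23 to 5.34 and 5.06 to 5.41, and Cxcr4, at 0.87 to 1.23 and 0.95 to 1.27, overlapped between genotypes. The difference between classes was not tested, since the classes hold 1 to 4 genes chosen with earlier results known.

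**Figure D5:**
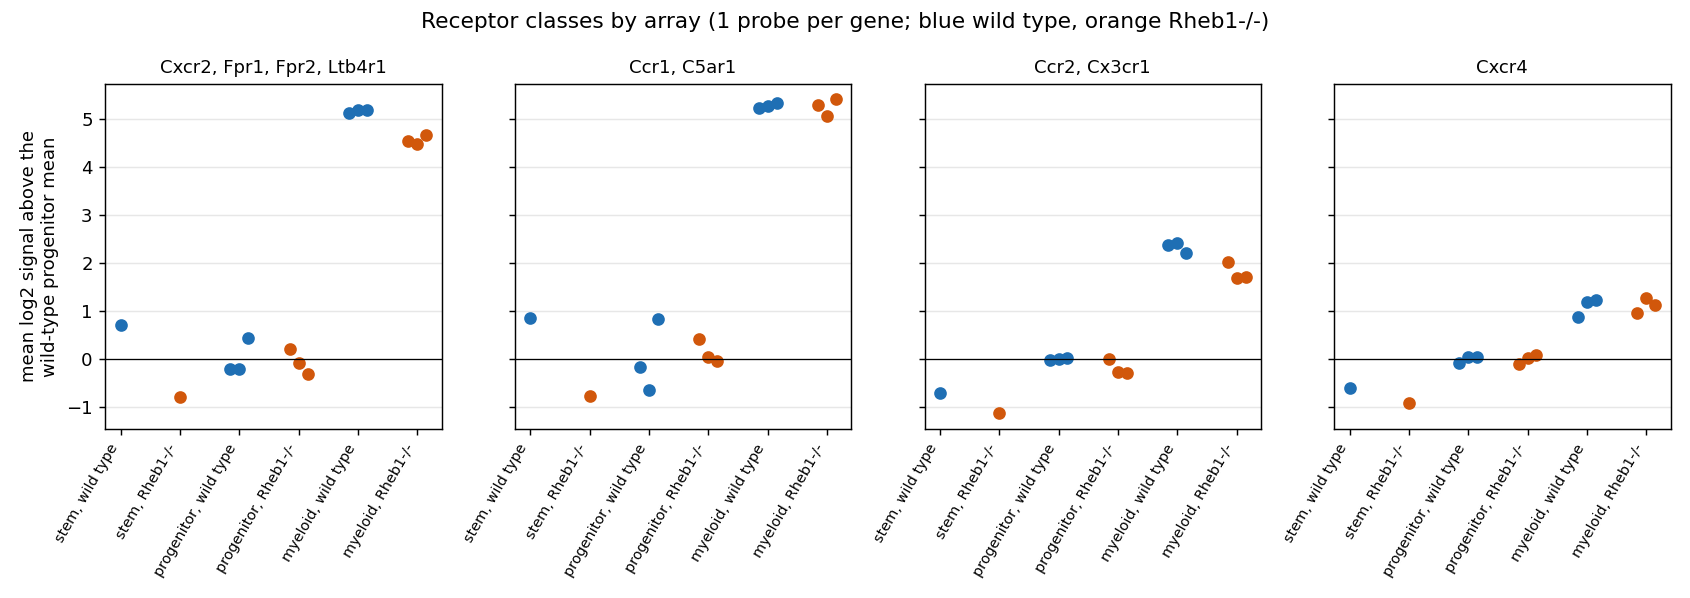
Mean log2 signal of each receptor class above its mean in wild-type progenitors, on each of the 14 arrays, with 1 probe per gene. In myeloid cells the neutrophil-leaning class lies at 5.13 to 5.19 in wild-type and 4.47 to 4.66 in Rheb1-/- samples. The monocyte class lies at 2.20 to 2.41 and 1.68 to 2.01, while the ranges of Ccr1 with C5ar1 and of Cxcr4 overlap. The height of Ccr1 with C5ar1 rests on a dim baseline, since Ccr1 was not well above background in progenitors.

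On the stem cell arrays, 1 per genotype and on different slides, values are descriptions with no replicate check. Of 14 member probes 11 were well above background on both arrays, and 5 of these were lower past 2-fold on the Rheb1-/- array and 0 higher, against 5.69% of 25973 probes that were lower and 4.72% that were higher. Fpr1 read 2.61 on the wild-type and -0.16 on the Rheb1-/- array, a 6.82-fold difference. Fpr2 read 1.43 and -0.06 at probe 919 and -2.32 and -4.20 at probe 308. Ltb4r1 read 2.80 and 1.70, and Cx3cr1 probe 2476 read -0.46 and -1.75. Cxcr2 read 0.21 and -0.49 at probe 2108, within 2-fold, as were both Cxcr4 probes. Ccr2 ran the other way, at 0.18 and 0.62 with probe 2657 and -3.73 and -3.60 with probe 3228. C5ar1 and Cx3cr1 probe 884 were measured on the wild-type array only, and Ccr1 on neither.

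Markers of other cell types also differed between the 2 stem cell arrays, in both directions. The 11 neutrophil markers, all measured, summed to 10.07 on the wild-type and 9.12 on the Rheb1-/- array, and the 12 monocyte or macrophage markers to 8.03 and 7.03. The 8 stem cell markers summed to 5.02 and 5.13, and the 8 myeloid progenitor markers were higher on the Rheb1-/- array (9.12 and 9.67), as were T or NK cell markers (4.99 and 5.43). Eosinophil, basophil or mast cell markers were at 7.63 and 4.48, B cell markers at 5.75 and 4.32, dendritic cell markers at 2.13 and 1.57 and megakaryocyte markers at 3.82 and 3.79. Erythroid markers were at 6.24 and 3.59, and stroma or endothelium markers at 6.21 and 2.15, with Cdh5 not above background on the Rheb1-/- array. Their part in the receptor values was not tested.

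The order of the 6 groups differed between the members. For Fpr1 and Fpr2 wild-type myeloid cells came first, then Rheb1-/- myeloid cells and the wild-type stem cell array, and the 2 progenitor groups overlapped below them. The Rheb1-/- stem cell array lay within both progenitor groups for Fpr2 probe 919, within the wild-type group and above the Rheb1-/- group for Fpr1, and within the Rheb1-/- group and below the wild-type group for Fpr2 probe 308. For Cxcr2 probe 2108 the wild-type stem cell array overlapped both progenitor groups. For Ltb4r1 and Cxcr4 the stem cell arrays were lowest, below overlapping progenitor groups, and for Ccr2 they were lowest in the opposite order of genotypes. For Cxcr4, Ccr1 and C5ar1 the 2 myeloid groups at the top overlapped.

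Of 30 other chemoattractant receptors, 25 were tested. In myeloid cells 11 were lower and 1 was higher in Rheb1-/- samples, with a median of -0.91 against -0.07 over all probes, of which 16.1% were lower and 15.5% higher. Ccr3, the eotaxin receptor of eosinophils, fell by 2.21 on the log2 scale (limma adjusted p = 0.00315), the sphingosine phosphate receptor S1pr4 by 0.76 (limma adjusted p = 0.00322) and Cxcr6 by 1.07 (limma adjusted p = 0.00415). In progenitors 0 of 25 passed. Between cell types 20 rose and 1 fell in wild-type cells, where 38.1% of all probes rose, and 15 and 1 in Rheb1-/- cells, where 29.6% rose. Of those that rose, P2ry12, Cxcr5, C3ar1, Ccr7 and Cxcr1 passed the filter on dim probes only through myeloid arrays. Their rise is therefore no independent support for these counts. Over the alternatives 11 to 21 rose in wild-type and 7 to 17 in Rheb1-/- cells. The genotype difference differed between cell types for 2 of the 25, beside 9.38% of all probes. These were the lymphocyte receptors Ccr6 (log2 -2.79) and Ccr9 (log2 -1.47; limma adjusted p = 0.0165 and 0.0268). Ccr6 was well above background on 1 of 3 wild-type progenitor arrays, and Ccr9 passed in 15 of 20 alternatives.

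Of 32 genes that carry the receptors' signal inside the cell, 10 were lower and 0 higher in Rheb1-/- myeloid cells, beside 16.1% and 15.5% of all probes, with a median of -0.20 against -0.07 over all probes. Plcb3, a phospholipase C activated by G proteins, fell by 0.72 on the log2 scale (limma adjusted p = 0.00137). Pik3r6 and Pik3r5, the regulatory subunits of phosphoinositide 3-kinase gamma, fell by 0.61 and 0.49 (limma adjusted p = 0.00791 and 0.0086), while its catalytic subunit Pik3cg differed by 0.01 and did not pass. The G protein subunit Gnai2 differed by -0.14 and did not pass; both are named outside the naming rule, as central parts of the pathway. In wild-type cells 29 of the 32 rose and 2 fell from progenitors to myeloid cells, and 27 and 2 did so in Rheb1-/- cells, against 38.1% and 29.6% of all probes that rose.

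Of 23 ligands and ligand-making enzymes 17 were tested, and 7 were lower and 2 higher in Rheb1-/- myeloid cells, beside 16.1% and 15.5% of all probes. Hc, the precursor of C5a, fell by 1.91 on the log2 scale (limma adjusted p = 0.000715) and the chemokine Ccl6 by 1.36 (limma adjusted p = 0.000716), while Mif, a cytokine that can also signal through CXCR2 and CXCR4, was higher by 0.87 (limma adjusted p = 0.000873). Cxcl12, the ligand of Cxcr4, fell by 1.75 (limma adjusted p = 0.0061), and Alox5, which makes leukotrienes, by 0.74 (limma adjusted p = 0.0345); these and the ligands below are named outside the naming rule because their receptors are members. Among the Cxcr2 ligands, Ppbp, which is also on the megakaryocyte marker list, fell by 2.20 (limma adjusted p = 0.0103). Cxcl2 differed by -0.20 and did not pass. Cxcl1, Cxcl5 and the Cx3cr1 ligand Cx3cl1 were not well above background in myeloid cells of either genotype.

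The genes whose signal ran most like each member over the 14 arrays were sought among 14215 genes, and the values are descriptions over arrays that fall into 3 cell types. For Cxcr2 they were Rnf11 and Gsdme (Pearson r = 0.997 each), for Fpr1 Plbd1 (0.998) and 6430548M08Rik (0.996), and for Fpr2 Slfn1 and Ceacam10 (0.999 each). Ltb4r1 ran with Hp (0.994) and Mfsd14b (0.993), Ccr1 with Litaf (0.998) and Ly75 (0.997), and C5ar1 with Inhba (0.996) and Il1r2 (0.995). Ccr2 ran with Flot2 (0.996) and Trim11 (0.994), Cx3cr1 with Tmem134 (0.988) and Sgpl1 (0.985), and Cxcr4 with Strn and Ckap4 (0.990 each).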

How the data were processed

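Total RNA of each sample was labelled with Cy3 and hybridised to 1 array, per the labels' protocols. The intensity used was the processed signal of the deposited scanner files, background-subtracted by Agilent Feature Extraction per the file headers, which name version 10.7.3.1 where the submitters' processing notes name 9.1. The flags for spots well above background and for outliers are those of the deposited files. A table of log2 values was also deposited by the authors, with its normalization unstated; its columns correlated with the log2 processed signal at 0.998 to 1.00 and had medians of 5.929, and it served as an alternative.

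Of 45018 spots 1639 controls and 79 to 195 outlier spots per array were left out, and spots of a probe were averaged. The log2 signal minus the array's 75th percentile was fitted with 1 mean per group over the 12 replicated arrays in limma 3.58.1 under R 4.3.3, with statmod 1.5.0 for random blocks and data.table version 1.17.8 for reading, on 8 residual and 2.11 prior degrees of freedom. A probe was kept if every array of 1 or more groups showed it well above background, and probes with a Benjamini-Hochberg adjusted p under 0.05 over all kept probes, two-sided, passed. Genes outside the members were represented by their brightest probe and named through a RefSeq table for GRCm38.p6 (27668 probes by accession, 5589 by symbol, 464 by older symbol, 7453 keeping the file's name). "At least" folds compare the myeloid mean with the lowest signal well above background on each progenitor array. Every probe of the 9 members is reported. From the lists of other receptors, signalling genes and ligands up to 3 genes of smallest adjusted p are named, apart from those given as outside the naming rule. Marker genes were named without this rule. Probe coordinates are those of the files (mm9). The script was tested on simulated data. No label links a sample to an animal, and p-values therefore reflect only the spread among these samples, which may be technical, and the number of arrays limits the precision. The members, classes and lists were chosen with earlier results of these data known. The alternatives were quantile normalization, normexp background correction (offset 50), the deposited log2 values, no filter or all 12 arrays, the brightest probe per gene, replicate number or slide as a block, only the arrays compared or those of slide 3, and leaving out each array.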

Additional observations from a re-analysis of the deposited data

Results flagged for a closer look

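For Cxcr2 probe 1545 the genotype difference had opposite signs in the 2 cell types, and the difference between them was itself past the threshold (log2 -1.22 ± 0.19 SE, limma adjusted p = 0.0101; range over 19 alternatives 0.0052 to 0.0277). All 3 Rheb1-/- arrays lay above the wild-type arrays in progenitors (log2 0.62, not passing) and all 3 lay below them in myeloid cells (log2 -0.60). The other Cxcr2 probe, 2108, had a term of -0.77 that did not pass (limma adjusted p = 0.147). Genotype and slide cannot be told apart on the myeloid side. Of the 14 member probes 1 passed this test, no larger a share than the 9.38% of all probes that did.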

How the results depend on the processing

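The rises of all 14 member probes from progenitors to myeloid cells kept their direction and passed in both genotypes in every alternative that tested them. With the brightest probe per gene, which tests fewer probes by construction, 9 member probes rose in each genotype and 13766 and 12139 probes passed in all in wild-type and Rheb1-/- cells, and 3 member probes fell in Rheb1-/- myeloid cells; with no filter on dim probes 3 fell, and the cause was not tested. Leaving out 1 array gave 2 to 6 lower member probes in myeloid cells. For the interaction, 0 member probes passed with the brightest probe per gene, which leaves out probe 1545 of Cxcr2, and 1014 of all probes passed with no filter in place of 2546 (1102 to 2872 with 1 array left out). Between progenitor genotypes 26 of all probes passed, and 11 with no filter, 13 with the brightest probe per gene, 4 with slide as a fixed block, 0 with only the arrays compared, 1 with the 4 arrays of slide 3 and 10 to 94 with 1 array left out, none of them a member; of the calls 26.9% were lower, and 66.7% with normexp. For the interaction 50.7% of calls were lower, and 35.9% with quantile normalization. No called member reversed. Uncalled values changed sign for Cxcr4 probe 1451 in progenitors (log2 0.04 with normexp, 0.01 with slide as a random block) and for the interaction of C5ar1 (0.14 with normexp) and Ccr1 (-0.24 with normexp, -0.02 with slide as a random block). With 1 array left out, uncalled values changed sign within these ranges. In progenitors they were -0.17 to 0.23 for Cxcr2 probe 2108, -0.25 to 0.16 for Fpr1, -0.33 to 0.11 and -0.62 to 0.00 for Fpr2, -0.17 to 0.07 for Ltb4r1, -0.43 to 0.08 for Ccr1 and -0.04 to 0.05 for Cxcr4 probe 1451. In myeloid cells they were -0.09 to 0.10 and -0.16 to 0.16 for Cxcr4 and -0.02 to 0.11 for Ccr2 probe 3228. For the interaction they were -0.86 to 0.11 for C5ar1, -0.30 to 0.21 for Ccr1 and -0.09 to 0.10 and -0.29 to 0.03 for Cxcr4. The cause of these changes was not tested. Stem cell differences moved with normexp to -0.76 for C5ar1, -1.10 for Fpr2 probe 308, -0.42 for Cx3cr1 probe 884 and -0.03 for Ccr1, all dim probes. Deviations of samples with the same replicate number correlated at -0.16 to 0.13. The same number matched best for 2 of 3 arrays between the Rheb1-/- cell types, and for 0 or 1 in the other comparisons. Pairing by number was therefore not shown, and so few arrays cannot exclude it. With the replicate block 5 member probes fell in myeloid cells and 28 probes passed in progenitors, and no member changed its call. Slide as a fixed block could be fitted only for progenitors and for Rheb1-/- cell types, and using only the arrays compared changes nothing for the interaction. No alternative, slide as a random block included, separates slide from genotype in myeloid cells. In 21 alternatives the other receptors gave 7 to 14 lower genes in Rheb1-/- myeloid cells, the signalling genes 5 to 14 and the ligands 4 to 7.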
